A study of Mus musculus with 16 samples.

Results

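Liver X receptors (LXRs) are nuclear receptors that bind oxidized forms of cholesterol and, paired with retinoid X receptors, switch on genes that move sterol out of cells. In the liver their targets include transporters that load cholesterol onto lipoproteins or pass it into bile, a ligase that marks proteins for breakdown, and enzymes of fatty acid and phospholipid metabolism. The expression of 9 genes of this system was examined in primary mouse hepatocytes. They were chosen by gene symbol from the 55450 rows of the count table. They are the receptors *Nr1h2* (LXRβ) and *Nr1h3* (LXRα), the sterol exporters *Abca1*, *Abcg1*, *Abcg5* and *Abcg8*, the ligase gene *Mylip*, the phospholipid-remodelling enzyme gene *Lpcat3* and *Pltp*, which encodes a plasma phospholipid transfer protein.

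Poly(A) RNA was sequenced from 16 libraries of hepatocytes isolated from wild-type mice, with 4 libraries in each of 4 groups and replicate letters A to D in every group. The study's methods give male mice aged 8 to 12 weeks. All cells were kept overnight in DMEM with serum and an insulin, transferrin and selenium supplement. The untreated group received nothing further. The itaconate group received 10 mM sodium itaconate, a dicarboxylate that activated macrophages make. The lipid group received a defined lipid mixture diluted 10-fold, whose stock held 0.22 mg/ml cholesterol, 2 µg/ml arachidonic acid and 10 µg/ml of each of 5 more fatty acids (palmitic, stearic, myristic, oleic and linoleic). The lipid + itaconate group received both. Library totals ran from 22346049 to 35512004 expected counts. The sources do not say whether letters stand for separate animals or cultures, so p-values measure the spread between these libraries, which may be technical.

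Levels are given as CPM, read counts scaled to a common library size. Changes were tested with edgeR's quasi-likelihood test, with replicate letter as a block. Benjamini-Hochberg adjustment covered the 11675 genes whose mean reached 1 CPM or more. A gene was called at an adjusted p under 0.05. Of the 9 genes, 7 passed this filter. *Abcg1* and *Mylip* did not, and their values come from the same model without a filter.

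The hepatocytes expressed the genes at very different levels. Per kilobase of exon, *Lpcat3* was highest on average over the 16 libraries (29.2 CPM per kb), followed by *Nr1h2* (22.5), *Abca1* (13.5), *Nr1h3* (9.72) and *Pltp* (9.64). *Abcg5* (1.59 CPM per kb) and *Abcg8* (1.19) were far lower, and *Mylip* (0.109) and *Abcg1* (0.0962) were close to the limit of detection. These levels were not tested against each other. Hepatocyte markers were abundant, with *Alb*, which encodes albumin, at a mean of 33508 CPM.

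**Figure D1:**
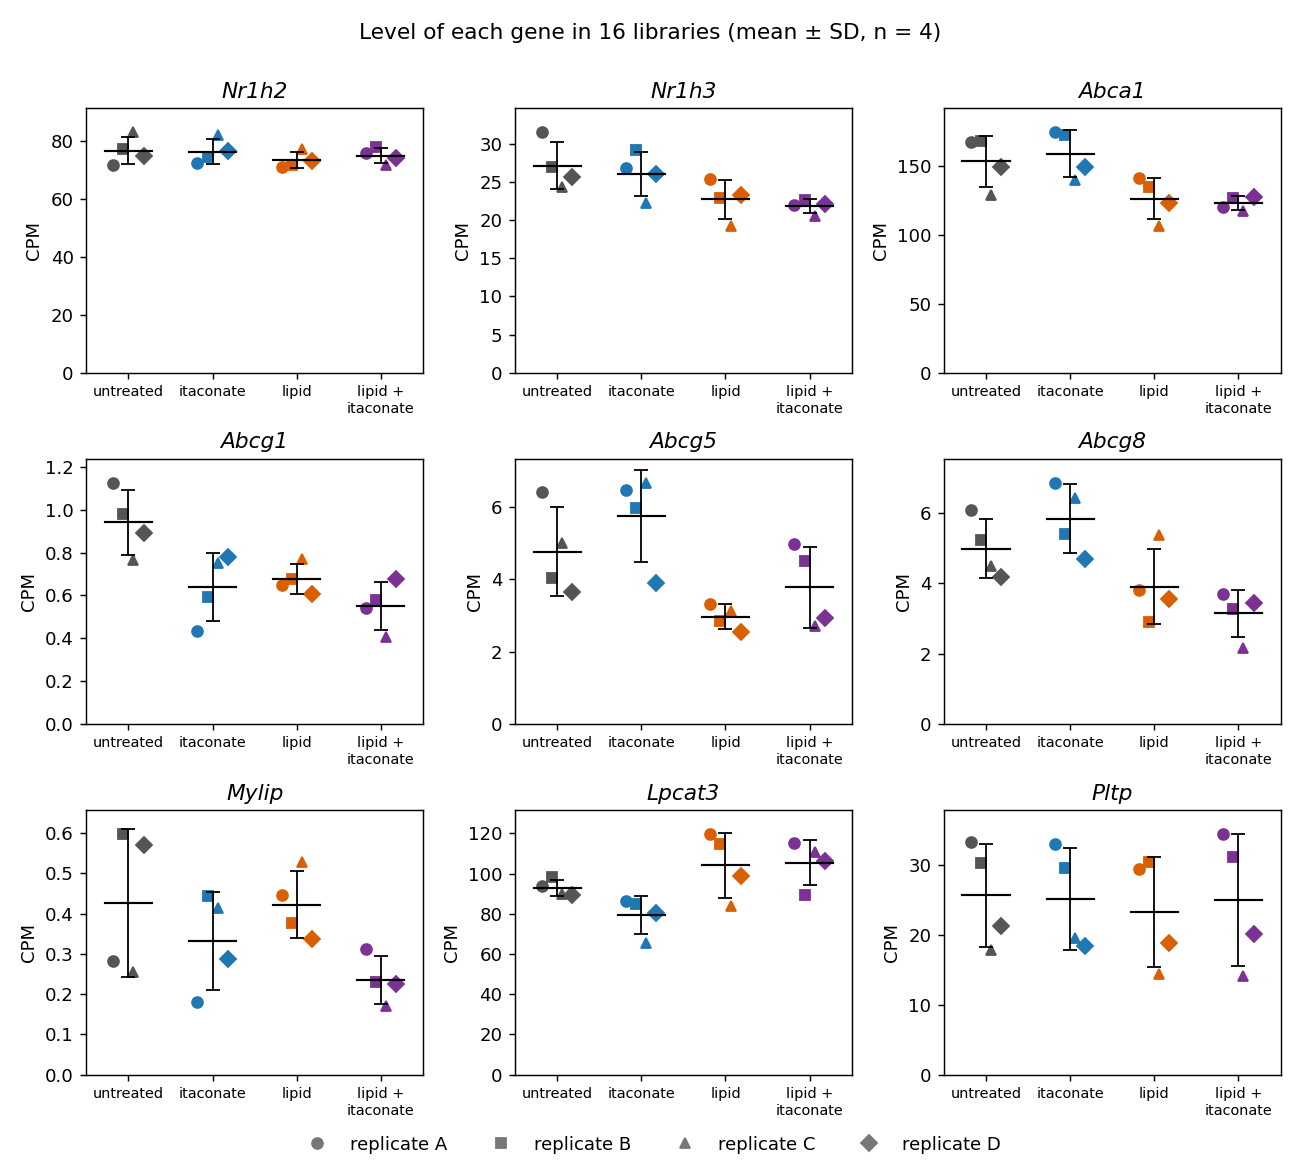
Each panel plots the level of one gene (CPM, vertical axis, starting at 0) in the 16 libraries by group, with a symbol for each replicate letter, a line at the group mean and bars of 1 SD (n = 4). *Abca1*, *Nr1h3*, *Abcg5* and *Abcg8* had lower means in both groups given lipid than in the groups without it, *Lpcat3* had higher means, and *Pltp* differed mainly by letter.

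The first question was what the lipid mixture, which carries cholesterol, did to these genes in the absence of itaconate. In lipid-treated against untreated hepatocytes, 3 of the 7 genes tested were called, where 47.5% of all genes tested were called. All 3 were lower (*Nr1h3*, *Abca1* and *Abcg5*), where 23.7% of all genes were called lower. The median log2 fold change of the 7 was −0.25, against 0.0047 over all genes tested. With so large a share of all genes called, a count of 3 is near the background. *Abcg8*, *Pltp* and *Nr1h2* had log2 fold changes of −0.35, −0.16 and −0.064 and were not called, and *Lpcat3* had one of 0.16 and was not called (adjusted p = 0.155).

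The same question was asked in cells that also received itaconate, using the other 8 libraries. In lipid + itaconate against itaconate, 5 of the 7 were called, where 47.0% of all genes tested were called. *Abca1*, *Abcg5*, *Abcg8* and *Nr1h3* were lower (23.5% of all genes were) and *Lpcat3* was higher (23.5% of all genes were). The median log2 fold change was −0.25, against 0.0041 over all genes tested.

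**Figure D2:**
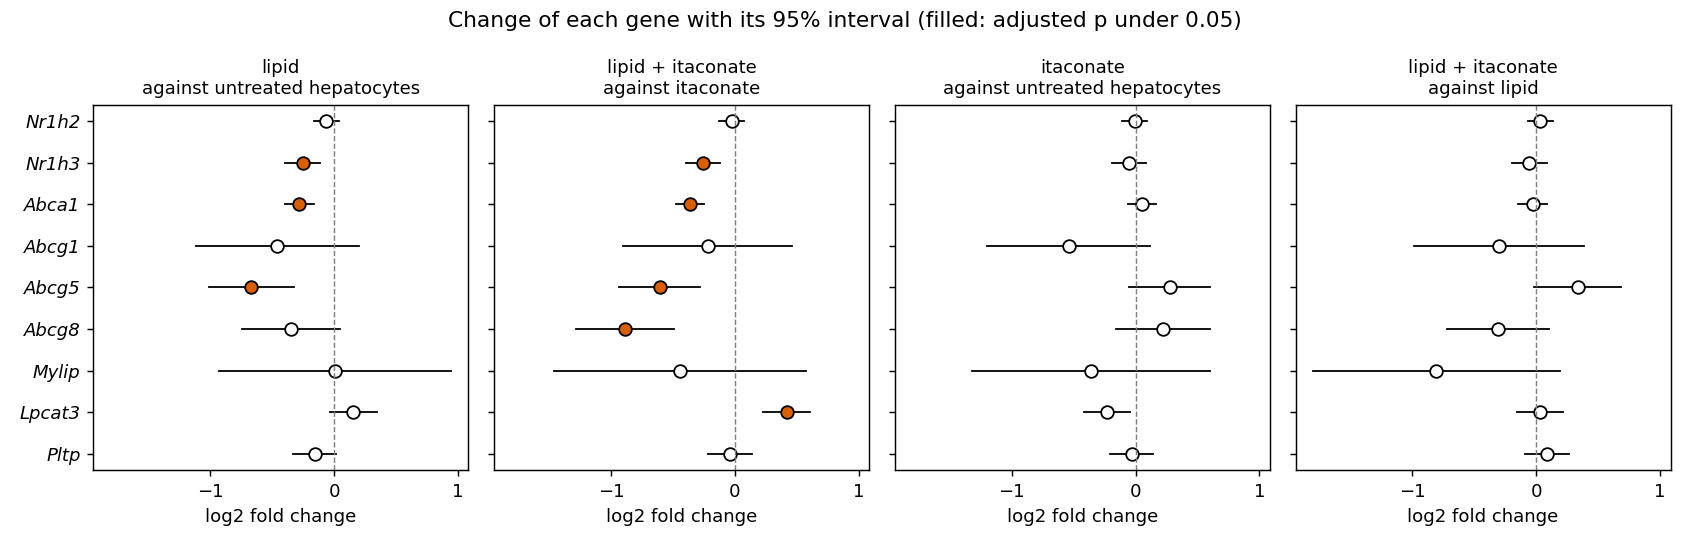
Points are log2 fold changes (horizontal axis) of the 9 genes in 4 comparisons, lines are 95% intervals, and filled points had an adjusted p under 0.05. Filled points appear in both comparisons for lipid and in neither comparison for itaconate, and the intervals of *Abcg1* and *Mylip* are the widest.

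Of the receptors, *Nr1h3* encodes the LXR form that is enriched in liver. Its levels in replicates A to D were 31.5, 27.0, 24.4 and 25.7 CPM in untreated and 26.9, 29.2, 22.3 and 26.1 CPM in itaconate-treated hepatocytes. They were 25.4, 23.0, 19.3 and 23.4 CPM with lipid and 21.98, 22.7, 20.6 and 22.1 CPM with lipid + itaconate. The level was lower with lipid in all 4 letters, both without and with itaconate, while the groups overlapped. *Nr1h3* fell by 0.25 on the log2 scale with lipid alone (SE 0.065, adjusted p = 0.00491) and by 0.25 with lipid on top of itaconate (SE 0.065, adjusted p = 0.00479). Without the replicate block, the first of these was not called (adjusted p = 0.0513). In order, the group means were untreated, itaconate, lipid and lipid + itaconate, and of the neighbours only itaconate and lipid differed (adjusted p = 0.0170).

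*Nr1h2* encodes the broadly expressed form. It ranged from 71.3 to 83.2 CPM over the 16 libraries, and its group means were 76.9 ± 4.80 (SD, n = 4) untreated, 76.5 ± 4.23 with itaconate, 73.5 ± 2.83 with lipid and 75.1 ± 2.73 with both. No neighbours in the order untreated, itaconate, lipid + itaconate and lipid differed (adjusted p from 0.707 to 0.946). With lipid alone it was lower in all 4 letters and not called (95% interval of the log2 fold change −0.17 to 0.037).

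*Abca1* passes cholesterol and phospholipid to lipid-poor apolipoprotein A-I, the step that starts a high-density lipoprotein. Replicates A to D had 167.2, 167.6, 128.7 and 149.1 CPM in untreated and 174.1, 172.1, 139.6 and 149.1 CPM in itaconate-treated hepatocytes. With lipid they had 141.0, 134.2, 106.5 and 122.7 CPM, and with lipid + itaconate 119.8, 126.6, 117.2 and 127.3 CPM. Every letter was lower with lipid, and the itaconate and lipid + itaconate groups did not overlap. *Abca1* fell by 17.7% with lipid alone (log2 fold change −0.28, SE 0.054, adjusted p = 0.000563) and by 22.3% with lipid on top of itaconate (log2 fold change −0.36, SE 0.054, adjusted p = 6.9e-05). Group means ran from itaconate through untreated and lipid to lipid + itaconate, and only the step from untreated to lipid was called.

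*Abcg5* and *Abcg8* encode the partner subunits of a transporter that passes sterols into bile. *Abcg5* had 6.42, 4.04, 5.00 and 3.64 CPM in untreated replicates A to D and 6.49, 5.99, 6.67 and 3.89 CPM with itaconate. It had 3.33, 2.86, 3.12 and 2.53 CPM with lipid and 4.98, 4.51, 2.71 and 2.92 CPM with both agents. All 4 lipid libraries lay under all 4 untreated ones, whereas the itaconate and lipid + itaconate groups overlapped. *Abcg5* fell by 37.0% with lipid alone (log2 fold change −0.67, SE 0.16, adjusted p = 0.00343) and by 34.4% with lipid on top of itaconate (log2 fold change −0.61, SE 0.16, adjusted p = 0.00475). These changes rest on 75 to 179 expected counts per library. Ordered from itaconate through untreated and lipid + itaconate to lipid, no neighbouring groups differed (adjusted p from 0.105 to 0.318).

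For *Abcg8*, replicates A to D had 6.09, 5.23, 4.49 and 4.17 CPM untreated and 6.85, 5.40, 6.44 and 4.70 CPM with itaconate. They had 3.82, 2.90, 5.39 and 3.54 CPM with lipid and 3.70, 3.27, 2.17 and 3.45 CPM with both. Lipid replicate C lay above its untreated partner and the other 3 letters lay below theirs, and no lipid + itaconate library reached the itaconate group. *Abcg8* fell by 45.8% with lipid on top of itaconate (log2 fold change −0.88, SE 0.19, adjusted p = 0.00126). With lipid alone its log2 fold change was −0.35 (SE 0.19, adjusted p = 0.136). Without lipid replicate C this became −0.58 (adjusted p = 0.0147), and without lipid replicate B −0.22 (adjusted p = 0.390). These were the lowest and highest adjusted p over all alternatives. The difference between both lipid effects was −0.53 (95% interval −1.10 to 0.028, adjusted p = 0.594). No neighbours in the order itaconate, untreated, lipid and lipid + itaconate differed (adjusted p from 0.136 to 0.494).

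*Lpcat3* attaches polyunsaturated fatty acids to membrane phospholipids and moved the other way. Replicates A to D had 94.1, 98.1, 89.6 and 89.5 CPM untreated and 86.5, 85.1, 65.6 and 80.2 CPM with itaconate. They had 119.5, 114.6, 83.9 and 98.6 CPM with lipid and 115.2, 89.4, 110.8 and 106.4 CPM with both. Every lipid + itaconate library exceeded every itaconate library, and every itaconate library lay under every untreated one. *Lpcat3* rose by 33.6% with lipid on top of itaconate (log2 fold change 0.42, SE 0.088, adjusted p = 0.00125). With lipid alone the log2 fold change was 0.16 (SE 0.088, adjusted p = 0.155). It was called at 0.23 without lipid replicate C (adjusted p = 0.0493) and at 0.17 without the filter (adjusted p = 0.0125). Without lipid replicate B it was 0.10 (adjusted p = 0.416), and its adjusted p ran from 0.0125 to 0.416 over all alternatives. The difference between both lipid effects was 0.26 (95% interval −0.0026 to 0.53, adjusted p = 0.582). No neighbours in the order lipid + itaconate, lipid, untreated and itaconate differed (adjusted p from 0.139 to 0.898).

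*Pltp*, whose product moves phospholipid between lipoproteins, differed more by letter than by treatment. Replicates A and B had 29.5 to 34.3 CPM in all groups, and replicates C and D had 14.1 to 21.2 CPM. Its group means were 25.6 ± 7.34 (SD, n = 4) CPM untreated, 25.1 ± 7.26 with itaconate, 23.2 ± 7.91 with lipid and 24.9 ± 9.44 with both, and no neighbours by level differed (adjusted p from 0.623 to 0.862).

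*Abcg1*, which exports cholesterol to mature high-density lipoprotein, and *Mylip*, the ligase gene, had few counts. *Abcg1* had 12 to 28 expected counts per library and means of 0.941 ± 0.151 (SD, n = 4) CPM untreated, 0.639 ± 0.159 with itaconate, 0.676 ± 0.0689 with lipid and 0.550 ± 0.111 with both. *Mylip* had 5 to 17 expected counts and means of 0.426 ± 0.183 CPM untreated, 0.332 ± 0.121 with itaconate, 0.422 ± 0.0834 with lipid and 0.235 ± 0.0592 with both. No change of either gene was called. *Mylip* was lower in lipid + itaconate than in lipid in all 4 letters, with no overlap (log2 fold change −0.81, adjusted p = 0.692), and *Abcg1* was lower with itaconate alone in all 4 letters (−0.54, adjusted p = 0.598). The 95% interval of the *Mylip* change with lipid alone, −0.93 to 0.95, shows what this depth leaves undetectable. No neighbouring groups differed for *Abcg1* (adjusted p from 0.444 to 0.977) or for *Mylip* (adjusted p from 0.722 to 1.0).

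The other pair of comparisons asked what itaconate did. In itaconate-treated against untreated hepatocytes, edgeR called 0 of the 7 genes, where 4.91% of all genes tested were called. DESeq2 also called 0, and 1 gene, *Lpcat3*, had an unadjusted p under 0.05 (log2 fold change −0.23, SE 0.088, adjusted p = 0.139). It was lower with itaconate in all 4 letters. It was called when only the 8 libraries of the comparison were fitted (adjusted p = 0.00721) and without the filter (adjusted p = 0.00276), within a range of 0.00276 to 0.423 over all alternatives. *Abcg5* (log2 fold change 0.27, adjusted p = 0.318) and *Abcg8* (0.22, adjusted p = 0.494) were higher in all 4 letters and not called. *Abca1* had an interval of −0.061 to 0.17.

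In lipid + itaconate against lipid, edgeR and DESeq2 each called 0 of 7, with 0 at an unadjusted p under 0.05, where 2.58% of all genes tested were called. *Abcg5* had the largest estimate of the 7 (log2 fold change 0.33, SE 0.17, adjusted p = 0.312). Without lipid + itaconate replicate C it was called (0.51, adjusted p = 0.0404), and without lipid + itaconate replicate B it was 0.21 (adjusted p = 0.602). Over all alternatives its adjusted p ran from 0.0404 to 0.652. In the fit that called it, 889 of all genes were called instead of 301. The interaction, which asks whether itaconate changed the lipid effect, called 0 of 7 in edgeR and DESeq2, with 0 at an unadjusted p under 0.05, where 0.00857% of all genes tested were called. Comparisons here share groups of libraries, so their values are not independent of each other.

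Other genes of the LXR system were followed as lists. A percentage in brackets after a count is the share of all genes tested that were called the same way in that comparison. It belongs to the main fit, that of all 16 libraries with the replicate block. List counts from other fits of the lipid comparisons have no such share beside them, so they are not set against a background. Lists were not tested as groups. Of 13 tested among 14 other LXR target genes, 11 were called with lipid alone (47.5% of all genes), 3 higher and 8 lower, with a median log2 fold change of −0.26. Without the replicate block 7 were called. *Srebf1*, the regulator of fatty acid synthesis, fell from 103.4 ± 3.41 to 65.2 ± 4.81 CPM (SD, n = 4; log2 fold change −0.67, adjusted p = 1.3e-06). *Scd2*, a fatty acid desaturase, fell by 1.80 and *Lpl*, lipoprotein lipase, by 0.88 on the log2 scale. In contrast, *Acaca*, which encodes acetyl-CoA carboxylase, rose from 47.2 ± 1.82 to 124.0 ± 14.3 CPM (log2 fold change 1.39, adjusted p = 6.7e-08). *Arl4c*, a small GTPase gene, rose by 0.96 on the log2 scale (adjusted p = 6.9e-06). *Mlxipl*, the carbohydrate-response factor, rose by 0.29 (adjusted p = 0.0210) but lost this call in 5 of 22 alternatives.

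On top of itaconate, 10 of the 13 were called with lipid (47.0% of all genes), 2 higher and 8 lower, and 7 without the replicate block. *Scd2*, *Lpl* and *Srebf1* had log2 fold changes of −1.62, −1.35 and −0.55, and *Arl4c* and *Acaca* of 0.84 and 0.82. With itaconate alone 0 of the 13 were called by edgeR (4.91% of all genes), with 2 at an unadjusted p under 0.05. DESeq2 called 1. The fit of only the 8 libraries compared called 3 and the fit without the filter called 4, while their counts of all genes were 1865 and 1091 instead of 573. In lipid + itaconate against lipid, *Arl4c* (log2 fold change −0.55, adjusted p = 0.0193) and *Acaca* (−0.48, adjusted p = 0.0221) were lower. These calls were lost in 7 and 5 of 22 alternatives.

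Of 10 partners and coregulators of LXR, 2 were called with lipid alone, where 47.5% of all genes tested were called. *Nrip1*, a corepressor gene, fell by 0.55 on the log2 scale (adjusted p = 2.3e-05), and *Rxra*, the main hepatic partner, rose by 0.11 (adjusted p = 0.0496), a call lost in 15 of 22 alternatives. On top of itaconate 3 were called lower (23.5% of all genes). They were *Nrip1* (log2 fold change −0.68), *Ncoa1* (−0.18) and *Ncoa3* (−0.17). The *Ncoa1* call was lost without the replicate block, and that of *Ncoa3* without itaconate replicate C or lipid + itaconate replicate C (highest adjusted p = 0.0731). With itaconate alone *Ncoa1* rose by 0.18 (adjusted p = 0.0442), which was lost in 11 of 22 alternatives.

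Of 12 SREBP2 target genes, which serve cholesterol synthesis and its control, 11 were called lower with lipid alone (23.7% of all genes) and 10 on top of itaconate (23.5%), with medians of −0.69 and −0.57, and 9 were called in each comparison without the replicate block. *Insig1* fell from 237.1 ± 20.5 to 91.0 ± 6.01 CPM (log2 fold change −1.38, adjusted p = 1.1e-09), and *Idi1* and *Hmgcs1* had log2 fold changes of −1.21 and −1.07. With itaconate alone 2 of 12 were called (4.91% of all genes), *Hmgcs1* lower by 0.39 and *Fdps* by 0.25, and these calls were lost in 5 and 6 of 22 alternatives. This count depended strongly on the analysis. At an unadjusted p under 0.05 there were 10 genes. The number called, all lower, was 10 with only the 8 libraries compared, 6 in DESeq2, 6 without the filter and 0 without the replicate block, and ran from 0 to 8 (without lipid + itaconate replicate C) when 1 library was left out. Of all genes, 1865 were called with only the 8 libraries, 1091 without the filter and 23 without the block, instead of 573. Without lipid + itaconate replicate C, 1047 were called. For DESeq2 and the unadjusted threshold no all-gene count is given here. Among enzymes that make or remove LXR ligands, *Lss* fell by 1.12 with lipid alone and by 0.86 on top of itaconate, while *Cyp27a1*, *Cyp7b1*, *Cyp39a1* and *Sqle* were not called in either comparison. *Lss* also fell by 0.35 with itaconate alone (adjusted p = 0.0338), a call lost in 8 of 22 alternatives.

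Among 13 tested genes of sterol acceptors, transport and esterification, 4 were called with lipid alone (47.5% of all genes), and 8 with only the 8 libraries compared. *Stard5* rose by 0.62, *Lipa*, the lysosomal lipase gene, by 0.29 and *Gramd1c* by 0.28, and *Stard4* fell by 0.33. On top of itaconate *Lipa* rose by 0.27 and *Stard5* by 0.27, the latter lost in 12 of 22 alternatives, and *Stard4* fell by 0.42. *Stard5* was lower in lipid + itaconate than in lipid (log2 fold change −0.46, adjusted p = 0.0264, lost in 6 of 22 alternatives). *Npc2* was lower with itaconate alone (−0.16, adjusted p = 0.0362, lost in 9 of 22).

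Relatives of the 9 genes were the next list. Of 11 tested among 18, 7 were called with lipid alone (47.5% of all genes), 3 higher and 4 lower. *Abca2* rose by 0.52, *Abca3* by 0.37 and *Mboat7* by 0.23 on the log2 scale, and *Lpcat4* fell by 1.75, *Abcg2* by 0.40 and *Abca6* by 0.28. On top of itaconate 8 were called (47.0% of all genes), 3 higher and 5 lower. *Abca2*, *Mboat7* and *Abca3* had log2 fold changes of 0.40, 0.36 and 0.20. *Abca6*, *Abca8a* and *Nr1h4*, the bile acid receptor gene, had −0.47, −0.43 and −0.41, and the last pair of calls was lost without the replicate block. *Lpcat4* was higher in lipid + itaconate than in lipid (log2 fold change 1.00, adjusted p = 0.0326, not called in 8 of 21 alternatives). Among these was DESeq2, which gave a log2 fold change of 1.00 and no adjusted p.

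The study enriched hepatocytes by slow centrifugation and reported them to be of high purity, judged by eye from cell shape and size. Macrophages also express *Abca1* and *Nr1h3*, so markers of other cells were measured. Of 10 macrophage and Kupffer cell markers tested among 13, 7 were called with lipid alone (47.5% of all genes), 1 higher and 6 lower, and 10 on top of itaconate (47.0% of all genes), 1 higher and 9 lower. Without the replicate block 4 and 9 were called. The most abundant, *Cd68*, was the one that rose (196.4 ± 41.8 CPM untreated, 262.2 ± 42.1 with lipid). No marker was at 0 in all libraries, and 3 were under 1 CPM. Summed over the list without *Cd68*, replicates A to D had 44.6, 53.9, 64.0 and 48.0 CPM untreated and 31.9, 43.8, 38.7 and 29.0 CPM with lipid. The same sums were 44.4, 66.9, 65.4 and 54.6 CPM with itaconate and 24.9, 42.2, 25.3 and 28.03 CPM with both. With *Cd68* included the sums ran from 190.5 to 306.5 CPM untreated, 169.0 to 259.3 with itaconate, 239.0 to 338.3 with lipid and 220.0 to 325.8 with both. With lipid alone *Clec4f*, *Csf1r* and *Lyz2* were not called. So most of these markers, but not *Cd68*, fell in the comparisons in which *Abca1*, *Nr1h3* and *Abcg5* fell, and their part in the result was not tested. In bulk RNA, fewer cells of a type and less RNA per cell cannot be told apart. Mitochondrial genes held 3.6, 3.7, 3.7 and 4.1% of the counts in untreated replicates A to D, 4.3, 3.3, 4.4 and 4.7% with itaconate, 4.1, 3.5, 4.7 and 4.6% with lipid and 4.0, 4.1, 6.0 and 5.0% with both. This share was higher with lipid in 3 of 4 letters in each lipid comparison, and highest in lipid + itaconate replicate C, the library whose removal changed the *Abcg5* call in lipid + itaconate against lipid. Its part in the results was not tested.

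Markers of the remaining cell types were mostly low. Of 7 stellate cell markers 5 were under 0.1 CPM, and *Reln* (20.2 CPM) was the most abundant and the only one tested. It was not called with lipid alone (log2 fold change −0.20, adjusted p = 0.0778) and was lower on top of itaconate (−0.23, adjusted p = 0.0411). The second was lost without the replicate block, with only the 8 libraries compared and without some single libraries, such as itaconate replicate B. The first was called with only the 8 libraries compared and without some single libraries, such as lipid + itaconate replicate A. Endothelial markers summed to between 11.6 and 23.4 CPM in every library, led by *Cdh5* (5.79 CPM). In replicates A to D the sums were 11.7, 22.7, 14.5 and 17.05 CPM untreated and 13.8, 23.4, 17.3 and 19 CPM with lipid. They were 11.6, 19.1, 12.6 and 15.3 CPM with itaconate and 12.15, 21.5, 11.8 and 17.5 CPM with both. Of 5 tested, 2 were called with lipid alone (47.5% of all genes) and 1 on top of itaconate (47.0%). With lipid alone *Lyve1* was higher (log2 fold change 0.63) and *Stab2* lower (−0.55), and on top of itaconate *Stab2* was lower (−0.50). Without the replicate block neither comparison called any, and with 1 library left out the counts ran from 0 to 2 and from 0 to 1. Of the cholangiocyte markers, *Krt7* and *Cftr* were under 0.1 CPM, 1 of them at 0 in all libraries, whereas *Spp1* (529.9 CPM) and *Sox9* were expressed and were lower with lipid in both comparisons (1 of the 2 calls on top of itaconate was lost without the replicate block). Hepatocyte markers were lower for 3 of 8 with lipid alone (23.7% of all genes), and on top of itaconate 5 were lower (23.5%) and 1 higher, with *Alb* at −0.18 in each. Without the replicate block 0 and 1 were called, and with 1 library left out 1 to 5 and 3 to 7. Their part in the result was not tested.

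Genes with patterns like *Abca1* and *Abcg5* were sought by correlating log2 CPM over the 16 libraries after removing letter means, as a description without a test. The libraries share 4 treatments, which such an r reflects. Among the closest for *Abca1* were *Zswim8* (r = 0.970), *Rbm25* (0.966), *Ppp2r3d* (0.965) and *Ctsc* (0.962). For *Abcg5* the closest were *C9* (r = 0.979), *Acadvl* (0.977), *Sord* (0.972), *Cyp2j5* (0.971) and *Mplkip* (0.970). Among the 9 genes, *Abca1* had r = 0.881 with *Nr1h3*, 0.691 with *Abcg8*, 0.673 with *Abcg5*, 0.294 with *Pltp*, 0.132 with *Nr1h2* and −0.615 with *Lpcat3*. *Abcg5* had r = 0.745 with *Abcg8*, 0.690 with *Pltp*, 0.642 with *Nr1h2*, 0.616 with *Nr1h3* and −0.860 with *Lpcat3*. Such values are common, since by r with *Abca1* the gene *Nr1h3* ranked 377 and *Abcg8* ranked 2106 among all genes tested.

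Positions are those of GRCm38. *Abcg5* (chr17:84658234-84683011, minus strand) and *Abcg8* (chr17:84676302-84700333, plus strand) overlap, and share 82 exonic bases, 3.02% of those of *Abcg5*. *Abca1* lies at chr4:53030787-53159895 (minus), *Nr1h3* at chr2:91184061-91202834 (minus), *Nr1h2* at chr7:44549616-44553951 (minus) and *Abcg1* at chr17:31057675-31117988 (plus). *Lpcat3* (chr6:124663027-124704418, plus) shares 10.2% of its exonic bases with *Emg1* (77.2 CPM) on the other strand. *Pltp* (chr2:164839518-164857711, minus) shares 19.3% with *Ctsa* (143.3 CPM), and *Mylip* is at chr13:45389742-45412022 (plus). The library kit keeps strand, but the strand setting of the counting is not given in the sources used here, so reads in shared exons could not be assigned with certainty.

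RefSeq promoter windows of 300 bases (GRCm38.p6) were at hand for 8 of the 9 genes. LXR and its partner are known to bind 2 half-sites of AGGTCA spaced by 4 bases. The motif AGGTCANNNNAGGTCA, searched on both strands, was in 5 of 32851 windows (0.0152%) and in no window of the 8 genes, which says only that these letters are not there. A looser form, NGGTNANNNNNGGTNA, which contains the first and was chosen after the *Abca1* sequence had been seen, was in 236 windows (0.718%). Of the 8 genes it matched only *Abca1*, on the strand opposite to the gene, at chr4:53159947-53159962. The window (chr4:53159846-53160145, minus strand) is shown because *Abca1* fell in both lipid comparisons, with the match in capitals. A match describes the sequence only, and binding of LXR was not measured here.
Abca1: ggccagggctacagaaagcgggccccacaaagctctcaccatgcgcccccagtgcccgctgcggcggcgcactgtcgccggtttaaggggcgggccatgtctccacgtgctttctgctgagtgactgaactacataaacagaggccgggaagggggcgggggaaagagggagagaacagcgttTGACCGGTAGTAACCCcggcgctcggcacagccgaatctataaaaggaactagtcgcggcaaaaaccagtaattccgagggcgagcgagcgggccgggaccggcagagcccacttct

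RefSeq lists 2 starts for *Abcg8*. One lies 110 bases from that of *Abcg5*, pointing away from it, and the other lies inside *Abcg5*, at chr17:84676302. Which start these cells use was not tested. Both genes fell with lipid on top of itaconate. The *Abcg8* window at the first start is shown (chr17:84682871-84683170, plus strand), with the bases between this start and that of *Abcg5* in capitals.
Abcg8: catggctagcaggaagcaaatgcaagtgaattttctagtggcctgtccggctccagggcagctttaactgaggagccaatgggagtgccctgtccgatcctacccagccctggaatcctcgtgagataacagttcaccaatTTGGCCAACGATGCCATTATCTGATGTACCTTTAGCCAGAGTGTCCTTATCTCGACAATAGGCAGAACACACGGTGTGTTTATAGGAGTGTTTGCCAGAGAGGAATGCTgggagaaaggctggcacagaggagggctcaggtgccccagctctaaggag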

How the data were processed

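The deposited values are expected counts per gene, which the authors made with RSEM 1.3.1 after trimming with Cutadapt 1.18 and alignment to mm10 with STAR 2.7.0f, per the submitters' processing notes and the study's methods. They carry no normalization. The authors' own normalization, filter, batch removal and ANOVA came later and were not used. The GENCODE release is not given in the sources used here, and all 55450 identifiers were found in mouse release 21.

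After rounding to whole numbers, edgeR 4.0.16 under R 4.3.3 was used (TMM, quasi-likelihood test, treatment and replicate letter in 1 model of 16 libraries), beside limma 3.58.1 and DESeq2 1.42.0. Figures were drawn with matplotlib. The letter was kept as a block because the authors removed a batch, and it was the only such label. Correlations between deviations from group means ran from 0.144 to 0.469 over 24 same-letter pairs. They ran from −0.436 to 0.178 over 72 pairs of other letters, so the ranges overlap. Deviations within a group cancel out, so these ranges are not independent of each other. No 2 libraries of a group agreed within counting noise (chi-square per gene from 10.0 to 146.5 over 24 pairs). The model was tested on simulated data.

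Named genes are the 9 genes and, from each other list except markers, up to 3 higher and 3 lower genes with the largest called change in each comparison. The markers, *Emg1*, *Ctsa* and the enzymes not called were named after their values were seen. For likeness, the 5 genes with the highest r were chosen for *Abca1* and *Abcg5*. Some genes that these rules choose are not reported here. The members and lists were chosen with earlier results of these data known. Alternatives were no replicate block, RLE size factors, no filter, filterByExpr, only the 8 libraries compared, DESeq2 and leaving out each library.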

Additional observations from a re-analysis of the deposited data

How the results depend on the processing

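Of 981 refitted values of the 9 genes, 937 kept their direction and their side of the threshold. Most of the 937 were changes not called in the main fit that stayed uncalled. Some of the fits left out a library from a group outside the comparison. The 5 calls with lipid on top of itaconate and those of *Abca1* and *Abcg5* with lipid alone held in all alternatives. Without the replicate block, *Nr1h3* with lipid alone was no longer called (log2 fold change −0.25, adjusted p = 0.0513), leaving 2 of the 7 tested genes called. The paired design changed no other call of these genes. The all-gene count for lipid alone without the block is not given here, so the 2 are not set against a background. In that fit itaconate called 23 of all genes instead of 573, lipid + itaconate against lipid 9 instead of 301, and the interaction 0 instead of 1. For itaconate alone, 1 of the genes (*Lpcat3*) was called without a filter and 1 with only the 8 libraries, where all-gene counts were 1091 and 1865. For lipid + itaconate against lipid those counts were 725 and 13, and 509 in DESeq2. The interaction counted 2 genes with RLE size factors, 231 without a filter, 2 with filterByExpr and 36 in DESeq2. Leaving out 1 library at a time gave 3 to 5 of the genes for lipid alone (5 without lipid replicate C) and 0 to 1 for lipid + itaconate against lipid (1 without lipid + itaconate replicate C). All-gene counts then ran from 149 to 1047 for itaconate alone, 59 to 889 for lipid + itaconate against lipid and 0 to 8 for the interaction. The 889 came from the fit without lipid + itaconate replicate C, which called *Abcg5*. For lipid alone no all-gene counts with 1 library left out are given here, so the 5 are not set against a background. Changes near 0 that turned sign were never called. *Mylip* with lipid alone was 0.0082, and −0.022 without the replicate block, −0.0084 with RLE, −0.0093 with filterByExpr and −0.0024 in DESeq2. *Nr1h2* with itaconate alone was 0.0015 without a filter. With 1 library left out, *Mylip* with lipid alone ran from −0.23 to 0.26. With itaconate alone *Nr1h2* ran from −0.029 to 0.018 and *Pltp* from −0.13 to 0.023. With lipid on top of itaconate *Nr1h2* ran from −0.059 to 0.030 and *Pltp* from −0.093 to 0.052. In lipid + itaconate against lipid *Nr1h2* ran from −0.0020 to 0.087, *Abca1* from −0.082 to 0.027 and *Lpcat3* from −0.064 to 0.14. In the interaction *Nr1h3* ran from −0.062 to 0.038 and *Abcg5* from −0.067 to 0.24. The causes were not tested. Alternatives for named genes of other lists were added after the data had been seen, and 20 of 22 calls with lipid alone and 16 of 21 on top of itaconate held in all of them, against 0 of 5 with itaconate alone and 0 of 4 in lipid + itaconate against lipid. Depth limits *Abcg1* and *Mylip*, at 28 expected counts or fewer per library.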
